A study of Homo sapiens with 4 samples.

Results

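The genes described here are 36 listed genes around serum response factor (SRF): the factor itself, its coactivators MRTFA and MRTFB, and the genes of myosins, tropomyosins, calponins, filamin, LIM proteins and other parts of the contractile cytoskeleton, without the actins. All 36 had a row among the 64252 genes of the count table. They were put together with results of the same comparison known, namely the fold changes between the hairpins, so their fold changes and calls are a description and support nothing beyond it. RNA sequencing was done on J.gamma1, a human leukemic T cell line derived from Jurkat that lacks phospholipase C gamma 1, a defect that both groups share. The 2 shELOVL5 libraries came from cells with a short hairpin RNA against ELOVL5, which encodes an elongase of polyunsaturated fatty acids, and the 2 shNC libraries from cells with a control hairpin. All libraries came from 1 cell line, and the labels give neither a hairpin sequence nor a second hairpin against ELOVL5. They also do not say that replicates were separate cultures, so a p-value reflects nothing wider than the spread of these libraries, which may be technical.

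SRF binds a short DNA element, the CArG box, and works with a pair of cofactor families. MRTF proteins are held in the cytoplasm by free actin monomers and enter the nucleus when actin is driven into filaments, and they then activate genes of the actin cytoskeleton with SRF. Ternary complex factors of the ELK family instead link SRF to growth factor signalling and immediate early genes. In T cells the cortical actin and myosin network shapes the immune synapse, migration and integrin adhesion, and most of the smooth muscle members of the set are known chiefly from muscle and fibroblasts.

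The CArG boxes of the members are shown because SRF binds this element. Many members are known as SRF targets through such boxes, so a high share of them is set by the choice of genes and is given as a description. RefSeq promoter windows on GRCh38.p14, from 250 bases before to 50 bases after a start, were on hand for 33 members (77 windows); MYL9, TAGLN and CCN1 were not among them. An exact box, which reads CC, then any 6 of A or T, then GG, and matches itself on both strands, stood in a window of 8 of the 33 members (24.2%), against 1.60% of the 27305 genes with a window. By window the shares were 13.0% of 77 member windows and 1.29% of all 35116. With at most 1 mismatch the shares were 13 of 33 members (39.4%) and 22.3% of all genes. Each box is given below in the gene's own direction, with the 10-base box in capitals and 10 bases on each side.
SRF, upstream box: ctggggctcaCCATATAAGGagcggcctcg
SRF, downstream box: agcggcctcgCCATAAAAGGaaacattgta
TPM4: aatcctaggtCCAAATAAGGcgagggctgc
FLNA: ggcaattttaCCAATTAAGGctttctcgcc
ACTN1: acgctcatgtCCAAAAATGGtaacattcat
FHL2, first start: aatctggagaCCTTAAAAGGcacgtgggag
FHL2, second start: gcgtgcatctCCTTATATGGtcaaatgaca
CNN2: cgcctccaggCCTTATAAGGacatttgcgc
SVIL: cgagttcaggCCATAAAAGGcccgtcccat
FHL1: ccttggatcaCCTAAAATGGttaagaattt
The coordinates that follow span each printed stretch of 30 bases, flanks included. The stretches of the SRF gene lay at chr6:43171229-43171258 and chr6:43171249-43171278 on the plus strand, sharing a flank, with boxes centred 25 and 5 bases before the start. The TPM4 stretch (chr19:16067355-16067384, plus strand) had its box centred 168 bases before the start, the FLNA stretch (chrX:154374709-154374738, minus strand) 89 bases and the ACTN1 stretch (chr14:68977718-68977747, minus strand) 166 bases. Those of FHL2 lay at chr2:105438595-105438624 and chr2:105399091-105399120 on the minus strand. The CNN2 stretch lay at chr19:1026509-1026538 (plus strand), that of SVIL at chr10:29634985-29635014 (minus strand) and that of FHL1 at chrX:136196911-136196940 (plus strand). A match is a description of letters, not a bound site, and boxes outside these windows were not searched.

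Total counts were 17338719 and 16311139 in the shELOVL5 libraries and 17246603 and 16254002 in the shNC libraries. The targeted gene ELOVL5 had 71.8 and 70.0 CPM (read counts scaled to library depth, with TMM factors) in shELOVL5 and 342 and 353 CPM in shNC. All 12 T cell markers on the list were detected. Their summed levels were 1924 and 1930 CPM in shELOVL5 against 1986 and 1979 CPM in shNC, although 2 of them were higher and 5 lower. Over all tested genes, 9.22% were higher and 11.2% lower at an adjusted p under 0.05. Of 12 fibroblast and smooth muscle markers, COL1A2, COL3A1, DCN and LUM had 0 counts in every library. Others were detected: COL1A1 had 132 and 111 counts in shELOVL5 against 96 and 62 in shNC. MYH11 had 31 and 30 counts against 41 and 29, and neither gene passed. The summed level of these 12 markers was 94.7 and 98.5 CPM in shELOVL5 against 73.9 and 70.7 CPM in shNC, and most of it came from THY1, with 80.1 and 85.6 CPM against 62.9 and 61.9 CPM. THY1 and FN1 were the 2 higher genes among the 6 tested, and none was lower, beside 9.22% and 11.2% of all tested genes. The part of those markers in the results was not tested. Epithelial markers summed to 5.09 and 6.35 CPM against 6.53 and 7.42 CPM, with EPCAM, CDH1 and KRT19 at 0. KRT8 had 66 and 66 counts in shELOVL5 against 89 and 92 in shNC. KRT18 had 19 and 36 counts against 16 and 27, and neither keratin gene passed. Myeloid markers summed to under 2 CPM in each library. The endothelial and platelet list summed to 117 and 118 CPM in shELOVL5 against 102 and 97.7 CPM in shNC, nearly all from PECAM1, while CDH5, PF4, PPBP and GP9 were at 0.

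Nonmuscle contractile genes were abundant in these leukemia cells, whereas most smooth muscle forms were scarce or at 0. Per kilobase of merged exon length, the highest levels over all 4 libraries belonged to MYH9 (149 CPM per kb), TPM4 (145), FLNA (130), TAGLN2 (117) and DIAPH1 (97.1 CPM per kb). SRF ranked 10 of 36 at 57.1 CPM per kb, above MRTFA (9.14 CPM per kb) and MRTFB (4.19 CPM per kb). Merged exon length counts every annotated exon of a gene, so genes whose expressed transcripts are shorter than it are understated. This limits the ranks between genes here and the shares within families below. MYL9, which encodes the smooth muscle regulatory light chain, and CCN2, which encodes a secreted matricellular protein, had 0 counts in all 4 libraries, which allows at most 3 counts per library (0.173 to 0.185 CPM, counting error only). TAGLN, the smooth muscle transgelin gene, had 8.98 and 8.11 CPM in shELOVL5 and 7.12 and 8.04 CPM in shNC. It shares 11.4% of its exon bases with PCSK7 on the opposite strand, which had 1378 and 1402 counts in shELOVL5 and 1528 and 1417 in shNC, while TAGLN itself had 157 and 134 counts in shELOVL5 and 121 and 129 in shNC. Since the use of strand is not given, TAGLN and PCSK7 reads cannot be told apart there. The plot of levels per length shows both groups for the 30 members above 0.5 CPM per kb.

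**Figure D1:**
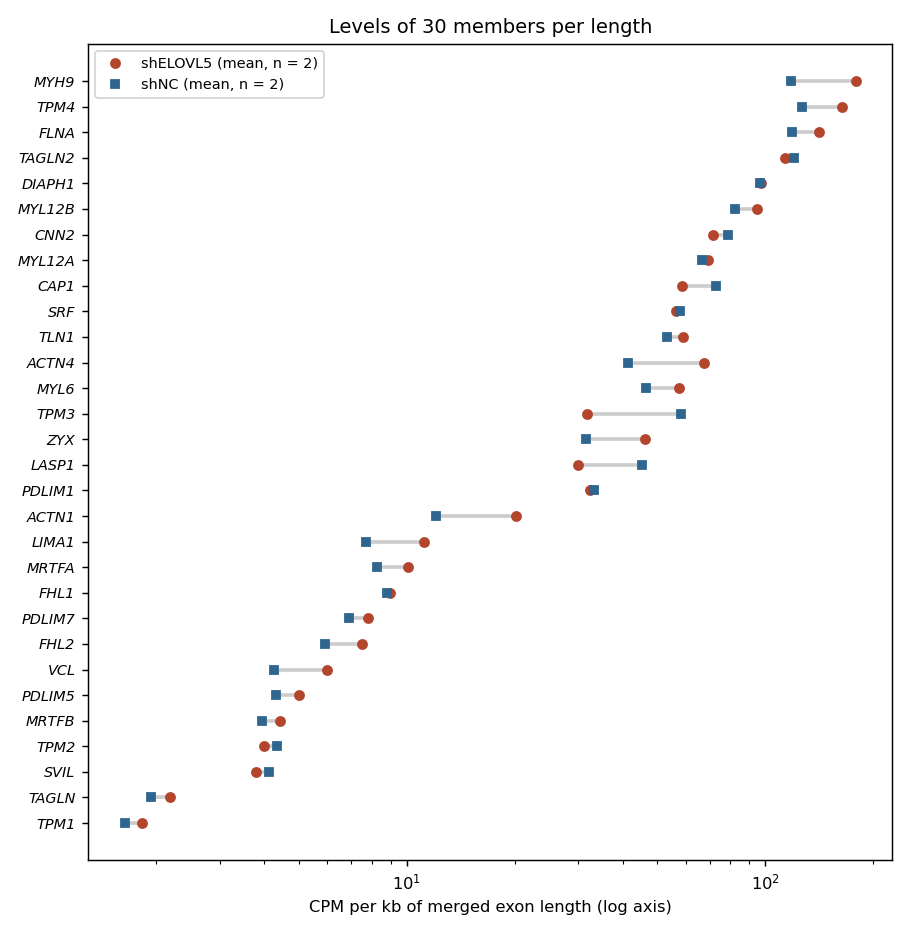
Levels of the 30 members above 0.5 CPM per kb of merged exon length, on a log axis; circles are shELOVL5 means and squares shNC means (n = 2 libraries each). MYH9 reaches 179 CPM per kb in shELOVL5 and 118 CPM per kb in shNC, while TPM1 lies at 1.82 and 1.63 CPM per kb.

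Of the 36 members, 32 passed the filter on low counts and were tested in the fit across all 17461 genes. After Benjamini-Hochberg adjustment over all genes, 13 were higher in shELOVL5, where 9.22% of all tested genes were, and 4 were lower, where 11.2% were (20.4% in both directions). The other 15 tested members did not pass. These shares depend on the libraries: without shELOVL5 replicate 1 or 2, 696 and 795 of all genes were higher and 1176 and 1178 were lower, against 1610 and 1952 with all libraries. The shELOVL5 and shNC libraries did not overlap for 27 of the 32, against 60.1% of all tested genes, and the median log2 fold change was 0.17 for the members and 0.0062 for all tested genes. Nothing is read from these counts, because the list was drawn up with this contrast known. In bulk RNA, a change in the number of cells that express a gene and a change in its RNA per cell cannot be told apart. In raw counts the 36 members took 0.944% and 0.955% of each shELOVL5 library and 0.798% and 0.820% of each shNC library. The calls of 12 of the 17 members held under all 12 alternative settings, and the 5 exceptions (MRTFA, MYL12B, TLN1, FHL2 and CNN2) are given with their values.

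**Figure D2:**
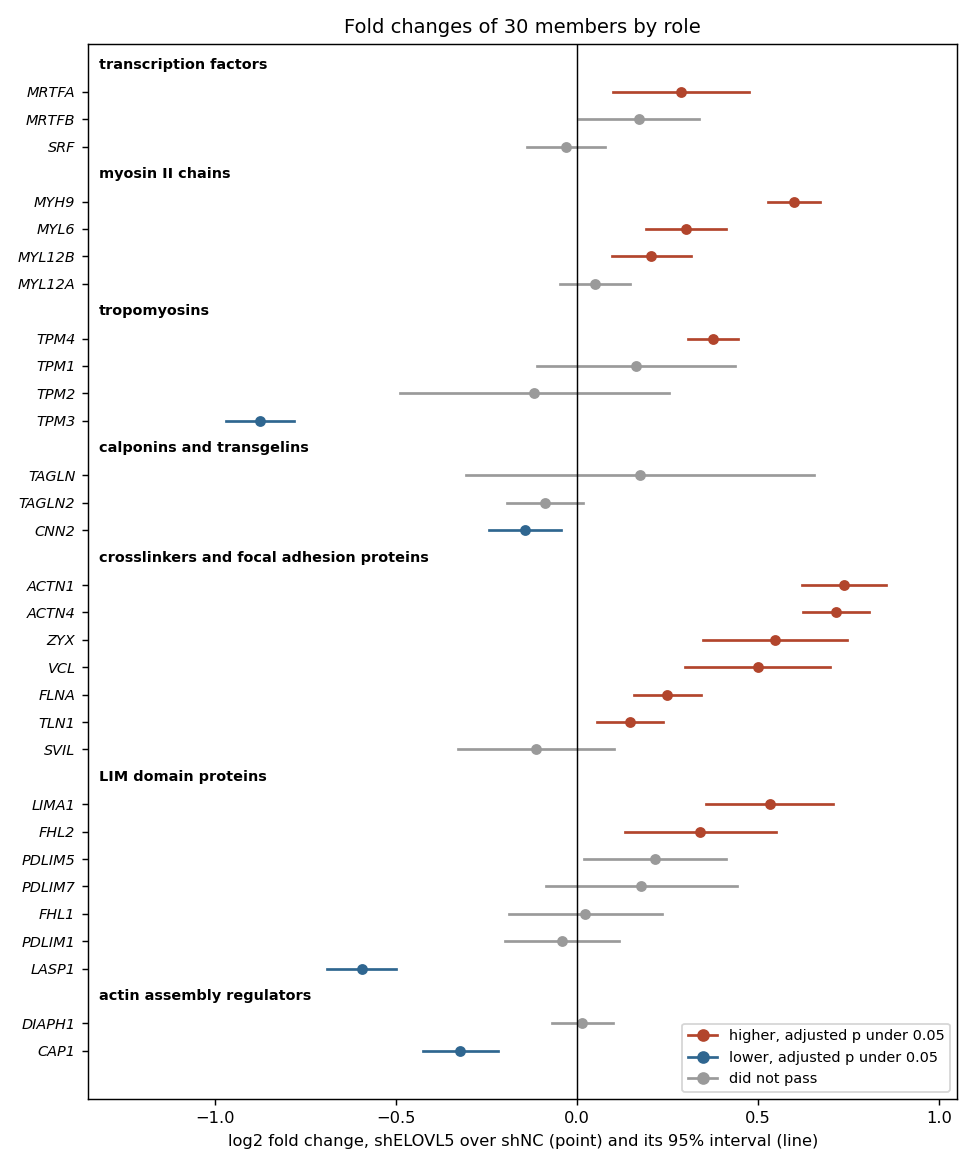
Log2 fold change of shELOVL5 over shNC (points) with its 95% interval (lines) for 30 tested members, grouped by role; red is higher and blue lower at an adjusted p under 0.05, grey did not pass. CNN1 and CNN3, with few counts, are left out; ACTN1 is farthest right at 0.74 and TPM3 farthest left at -0.87.

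The SRF gene itself differed by less than the spread between libraries, and of the coactivator genes MRTFA was higher. SRF (ENSG00000112658, chr6:43171299-43181507) had 229 and 246 CPM in shELOVL5 and 244 and 241 CPM in shNC. These values overlap, and the log2 fold change was -0.031 (95% interval -0.14 to 0.076). MRTFA (ENSG00000196588, chr22:40410281-40636702) had 68.1 and 63.1 CPM in shELOVL5, above its 51.6 and 56.0 CPM in shNC (log2 fold change 0.29, SE 0.0844). That call was not firm and ended in 7 of the 12 alternatives. Among these were DESeq2 (adjusted p = 0.0728), limma-voom (0.0504), robust=FALSE (0.0558) and no low-count filter (0.0905). The others were the fits without shELOVL5 replicate 1 or 2 or shNC replicate 1. The log2 fold change of MRTFA was 0.22 to 0.34 over the alternatives. MRTFB had 73.5 and 73.6 CPM in shELOVL5 against 68.1 and 62.6 CPM in shNC. Its libraries did not overlap, but the adjusted p missed the threshold (log2 fold change 0.17, 95% interval 0.0043 to 0.34).

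Among member chains of nonmuscle myosin II, the motor that pulls on actin filaments, MYH9, MYL6 and MYL12B were higher in shELOVL5. MYH9 (ENSG00000100345, chr22:36281277-36388067), the gene of nonmuscle myosin heavy chain IIA, had 1615 and 1615 CPM in the shELOVL5 libraries and 1052 and 1080 CPM in the shNC libraries. Both shELOVL5 values were well above both shNC values, 1.51-fold on average (log2 fold change 0.60, SE 0.0319). MYH10, the heavy chain IIB gene and the only other one of the family with counts here, is named to complete the family; it did not pass (log2 fold change -0.090). MYH9 made up 86.7% and 87.1% of the heavy chain level per length in shELOVL5 and 79.9% and 81.0% in shNC. The essential light chain gene MYL6 had 266 and 264 CPM in shELOVL5 against 224 and 206 CPM in shNC (log2 fold change 0.30, SE 0.0497). MYL6 shares 11.2% of its exon bases with SMARCC2 on the opposite strand, which had 2430 and 2395 counts in shELOVL5 against 2493 and 2314 in shNC. It shares 1.93% with its paralog MYL6B on the same strand. MYL6B, not a member, was lower (log2 fold change -0.45). MYL12B, which encodes a nonmuscle regulatory light chain, had 179 and 187 CPM against 159 and 159 CPM (log2 fold change 0.21, SE 0.0487). The MYL12B call was lost without shELOVL5 replicate 1 (adjusted p = 0.0548) or replicate 2 (adjusted p = 0.125), in a range of 0.00644 to 0.125 over the alternatives. MYL12A, the adjacent gene of a nearly identical light chain, had 224 and 225 CPM in shELOVL5 and 217 and 217 CPM in shNC, which did not pass (log2 fold change 0.049, 95% interval -0.047 to 0.15). Reads of MYL12A and MYL12B could be split by the counting, so the level of each alone is uncertain.

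Tropomyosins, coiled coils that run along actin filaments and set which myosins and severing proteins bind them, moved in opposite directions. TPM4 (ENSG00000167460, chr19:16067021-16103005) had 1419 and 1414 CPM in shELOVL5 against 1090 and 1094 CPM in shNC (log2 fold change 0.38, SE 0.0310). TPM3 (ENSG00000143549, chr1:154155304-154194648) had 273 and 260 CPM in shELOVL5 against 497 and 481 CPM in shNC, 1.83-fold lower (log2 fold change -0.87, SE 0.0424). For both genes the libraries of the groups lay far apart relative to the spread within a group. Per length, TPM3 supplied 16.1% and 15.5% of the tropomyosin level in shELOVL5 and 30.9% and 30.2% in shNC, while TPM4 supplied 81.1% and 81.6% against 65.9% and 66.7%. The summed tropomyosin level was 203 and 201 CPM per kb in shELOVL5 and 192 and 190 CPM per kb in shNC. The 9 named pseudogenes of TPM3 together had 118 and 110 counts in shELOVL5 against 167 and 154 in shNC. TPM1 (24.3 and 22.6 CPM against 21.0 and 21.0 CPM) and TPM2 (12.5 and 13.4 CPM against 14.7 and 13.5 CPM), the forms best known from muscle, did not pass. TPM1 shares 16.1% of its exon bases with the antisense gene TPM1-AS, which had 35 and 54 counts in shELOVL5 and 8 and 4 in shNC.

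**Figure D3:**
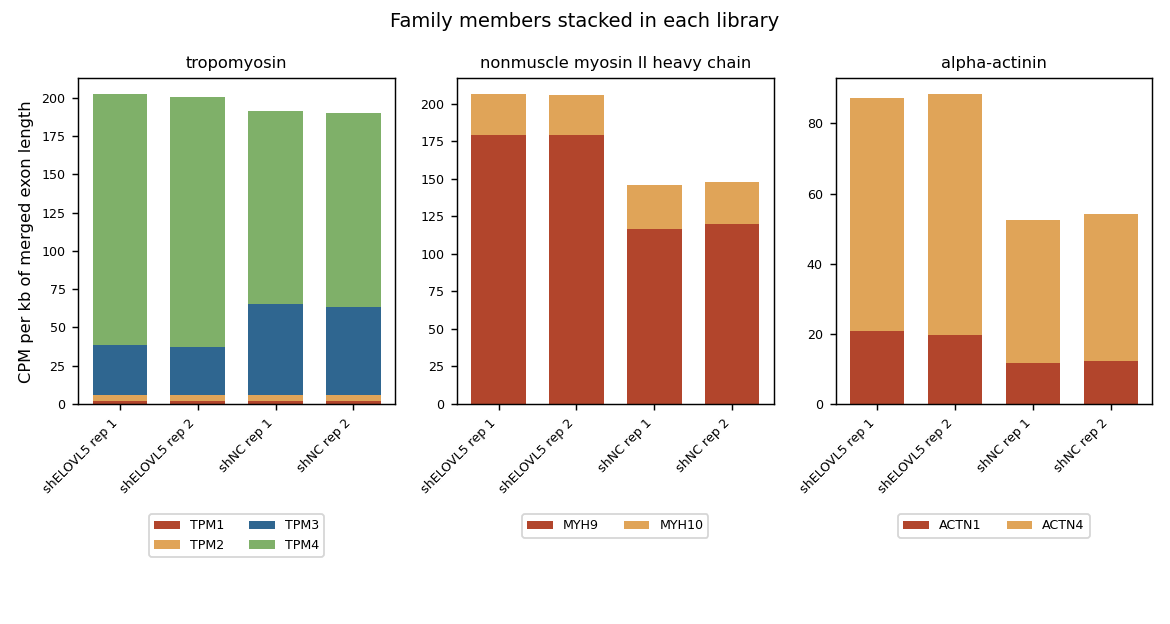
Stacked levels, in CPM per kb of merged exon length, of the tropomyosin, nonmuscle myosin II heavy chain and alpha-actinin genes in each library, with shELOVL5 replicates left of shNC replicates. The TPM3 segment measures 32.5 and 31.0 CPM per kb in shELOVL5, against 59.2 and 57.4 CPM per kb in shNC, and the TPM4 segment 164 and 164 against 126 and 127 CPM per kb.

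Genes of actin crosslinkers and of proteins that tie filaments to adhesion sites included 6 of 7 called higher in shELOVL5, where 9.22% of all tested genes were; these genes were listed with this contrast known, so nothing is read from the count. The alpha-actinins crosslink filaments into bundles. ACTN1 (ENSG00000072110, chr14:68874143-68979440) had 220 and 208 CPM in shELOVL5 against 126 and 131 CPM in shNC (log2 fold change 0.74, SE 0.0521), and ACTN4 (ENSG00000130402, chr19:38647649-38731583) had 406 and 420 CPM against 248 and 255 CPM (log2 fold change 0.71, SE 0.0414). Their summed level per length was 87.3 and 88.4 CPM per kb in shELOVL5 and 52.6 and 54.2 CPM per kb in shNC, with ACTN4 at 76.3% to 77.8% of it in all 4 libraries. The 2 genes kept nearly the same proportion to each other in all libraries. Zyxin, a LIM protein that gathers at strained filaments, is encoded by ZYX (chr7:143381080-143391111), which had 159 and 162 CPM in shELOVL5 against 99.3 and 121 CPM in shNC (log2 fold change 0.55, SE 0.0859). VCL, the gene of the adhesion linker vinculin, had 60.5 and 59.3 CPM in shELOVL5 against 40.03 and 44.8 CPM in shNC (log2 fold change 0.50, SE 0.0905). The shNC libraries of ZYX and VCL were wider apart than their shELOVL5 libraries but stayed below them.

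Filamin A, which crosslinks filaments into networks and binds integrin tails, is encoded by FLNA (ENSG00000196924, chrX:154348524-154374638). FLNA had 1471 and 1514 CPM in shELOVL5 against 1204 and 1308 CPM in shNC (log2 fold change 0.25, SE 0.0414). TLN1, the gene of the integrin activator talin, had 585 and 604 CPM in shELOVL5 against 521 and 553 CPM in shNC, a log2 fold change of 0.15 (SE 0.0412). The TLN1 call ended in 5 of the 12 alternatives. These were no low-count filter (adjusted p = 0.125), robust=FALSE (0.05004), and the fits without shELOVL5 replicate 1 or 2 or shNC replicate 1. Its log2 fold change was 0.10 to 0.18 over the alternatives. SVIL, which encodes the membrane-linked supervillin, had 37.8 and 37.6 CPM against 38.9 and 42.8 CPM and did not pass. VCL shares 11.1% of its exon bases with AP3M1 on the opposite strand, and AP3M1 had 869 and 942 counts in shELOVL5 against 909 and 893 in shNC.

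**Figure D4:**
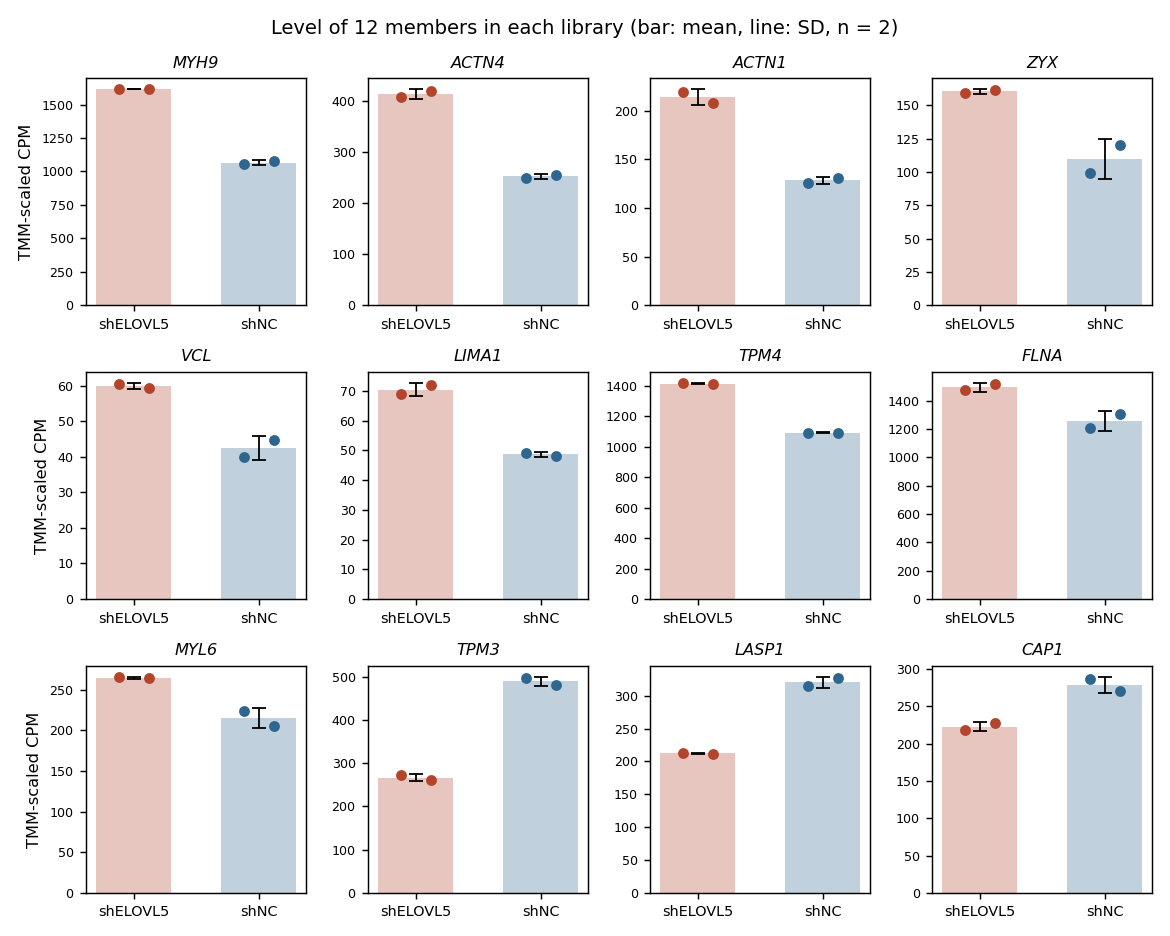
TMM-scaled CPM of the 12 members whose call held under every alternative setting, with each library as a point, the mean as a bar from 0 and the SD as a line (n = 2 per group, shELOVL5 left of shNC). In MYH9, ACTN4, ACTN1, ZYX, VCL, LIMA1, TPM4, FLNA and MYL6 both shELOVL5 points lie above both shNC points, and in TPM3, LASP1 and CAP1 below them.

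Calponins and transgelins, which bind along filaments and are classic smooth muscle products of SRF, were present here mainly as their nonmuscle forms. CNN2 made up 98.9% and 99.5% of the calponin level per length in shELOVL5 and 99.3% and 99.2% in shNC. CNN2 had 265 and 255 CPM in shELOVL5 against 293 and 281 CPM in shNC, a log2 fold change of -0.14 (SE 0.0448) that passed. This call failed in 8 of the 12 alternatives, with adjusted p between 0.0297 and 0.251, among them those without shELOVL5 replicate 1 (0.0954) or 2 (0.251), without shNC replicate 1 (0.147) and by DESeq2 (0.0650). TAGLN2, a transgelin abundant in lymphocytes, had 291 and 274 CPM in shELOVL5 and 293 and 308 CPM in shNC, which did not pass (log2 fold change -0.089, 95% interval -0.19 to 0.016). TAGLN did not pass either (log2 fold change 0.17, 95% interval -0.31 to 0.66). CNN1, the smooth muscle calponin gene, had 21 and 10 counts in shELOVL5 and 0 and 3 in shNC. The ratio of the group sums, 31 against 3 counts, was 10.3 with an exact 95% counting interval of 3.21 to 52.6, and the fit did not call CNN1 with all libraries (it did without shNC replicate 2, adjusted p = 0.0464, in a range of 0.0464 to 0.244 over the 9 alternatives that tested it). CNN3 had 19 and 6 counts in shELOVL5 against 29 and 27 in shNC and did not pass, with a ratio of sums of 0.444 (exact 95% counting interval 0.266 to 0.724). CALD1, the caldesmon gene, had 0 and 8 counts in shELOVL5 and 0 and 2 in shNC. It was too low to test, with a ratio of sums of 3.98 (0.795 to 38.5). The counting intervals of CNN1, CNN3 and CALD1 pool the reads of a group and leave out the spread between libraries, so they are too narrow. In the fit, the 95% interval for the log2 fold change of CNN3 was -2.50 to 0.084.

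LIM domain genes were mixed. LIMA1, which encodes the filament stabiliser EPLIN, had 68.8 and 72.0 CPM in shELOVL5 against 49.3 and 48.2 CPM in shNC (log2 fold change 0.53, SE 0.0788). LASP1 (ENSG00000002834, chr17:38869859-38921770), the gene of an actin-binding protein with a LIM and an SH3 domain, had 213 and 211 CPM in shELOVL5 against 314 and 326 CPM in shNC, 1.51-fold lower (log2 fold change -0.60, SE 0.0431). Within each group the replicates of both genes were close, and the groups did not overlap. FHL2, the gene of a cofactor that binds SRF, had 47.8 and 51.3 CPM in shELOVL5 against 40.7 and 37.5 CPM in shNC (log2 fold change 0.34, SE 0.0944). The FHL2 call ended in 5 of the 12 alternatives. These were DESeq2 (adjusted p = 0.0569), no low-count filter (0.0695), and the fits without shELOVL5 replicate 1 or 2 or shNC replicate 2. Its log2 fold change was 0.28 to 0.40 over the alternatives. FHL1 (log2 fold change 0.022), PDLIM1 (-0.041), PDLIM5 (0.22) and PDLIM7 (0.18), scaffold genes with LIM domains, did not pass. The 95% interval was -0.19 to 0.23 for FHL1 and -0.20 to 0.12 for PDLIM1, while that of PDLIM5 lay above 0 before adjustment (0.019 to 0.41).

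Of the genes that act on actin assembly, CAP1 was lower and DIAPH1 was not called. CAP1 (chr1:40040233-40072649), whose product recycles actin monomers together with cofilin, had 218 and 227 CPM in shELOVL5 against 286 and 271 CPM in shNC (log2 fold change -0.32, SE 0.0473). The exons of CAP1 share 31.2% of their bases with PPT1 on the opposite strand, and PPT1 had 1898 and 1748 counts in shELOVL5 against 2425 and 2365 in shNC. Whether the counting used strand is not given, so the share of PPT1 reads in the CAP1 value cannot be told apart. DIAPH1, the gene of a formin that builds unbranched filaments, had 713 and 726 CPM in shELOVL5 and 694 and 731 CPM in shNC. Its log2 fold change of 0.014 had a 95% interval of -0.070 to 0.098. CCN1, a secreted matricellular gene that SRF and YAP both activate, was below the filter with 12 and 6 counts in shELOVL5 and 0 and 2 in shNC. The ratio of its sums was 8.96, with an exact 95% counting interval of 2.15 to 79.6. That interval, too, leaves out the spread between libraries.

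Members with and without a CArG box in their windows held calls of both kinds. Of the 8 with an exact box, 4 were higher (ACTN1, FHL2, FLNA and TPM4), CNN2 was lower, and SRF, SVIL and FHL1 did not pass. Of the other 25 with a window, 9 were higher, 3 were lower, 11 did not pass and 2 were not tested. Of all tested genes, 9.22% were higher and 11.2% lower. The members were listed with this contrast known, so nothing is read from this split. MYH9 and ACTN4 had no exact box in their windows.

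Further genes of the pathway were listed from textbook knowledge with results of this series known. Nothing is therefore read from the counts of these lists, beside 9.22% higher and 11.2% lower among all tested genes. All 4 tested actin genes were higher. ACTA2 had 80.7 and 74.1 CPM in shELOVL5 against 8.95 and 6.17 CPM in shNC, and ACTG2 had 48.9 and 53.7 CPM against 12.1 and 14.6 CPM. The cytoplasmic actin genes ACTB and ACTG1 had log2 fold changes of 0.27 and 0.17, while ACTA1 had 11 and 3 counts against 8 and 6 and ACTC1 had 0. The smooth muscle actin genes thus lay far above their shNC levels. Of the smooth muscle members in the same libraries, MYL9 had 0 counts and TAGLN did not pass. CNN1 had 21 and 10 counts in shELOVL5 against 0 and 3 in shNC, and it was not called with all libraries. Whether these genes share a cause was not tested.

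Among 31 other SRF-MRTF targets, 22 were tested, 5 were higher and 2 were lower, with a median log2 fold change of 0.16. For this list and the paralogs below, the shares over all tested genes were 9.22% higher and 11.2% lower. The integrin genes ITGA5 (0.88, adjusted p = 6.49e-06) and ITGB1 (0.56, adjusted p = 1.78e-05) and the profilin gene PFN1 (0.18, adjusted p = 0.00217) were higher. CFL1, the gene of the filament-severing protein cofilin, was lower, with 348 and 353 CPM in shELOVL5 against 971 and 925 CPM in shNC (log2 fold change -1.43, adjusted p = 8.74e-09). PFN1 did not pass without shELOVL5 replicate 1 (adjusted p = 0.0523), in a range of 1.66e-07 to 0.0523 over the alternatives. Without shELOVL5 replicate 2 this list held 3 higher and 1 lower genes. Of 26 family paralogs of the members, 16 were tested, 1 was higher and 5 were lower (median -0.18), among them MYL6B (-0.45, adjusted p = 0.00595), FHL3 (-0.72, adjusted p = 0.0216) and, as the higher one, the zyxin relative LPP (0.52, adjusted p = 0.00127). MYL6B did not pass without shELOVL5 replicate 1 (0.0588, in a range of 0.00426 to 0.0588), and the FHL3 call ended whichever of the 4 libraries was left out (0.0636 to 0.119, in a range of 0.0202 to 0.119). Without 1 library 1 to 3 paralogs were lower, the fewest without shELOVL5 replicate 1.

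Of the 3 ternary complex factor genes, ELK1 and ELK3 were lower and ELK4 did not pass. ELK4, named after its values were seen, had 142 and 149 CPM in shELOVL5 against 125 and 139 CPM in shNC (log2 fold change 0.14, adjusted p = 0.145). Of 15 genes of SRF cofactors and MRTF restraint, 12 were tested, none was higher and 4 were lower (median -0.29). For this list and the immediate early targets below, the shares over all tested genes were 9.22% higher and 11.2% lower. ELK1, a ternary complex factor gene, had 36.6 and 40.9 CPM in shELOVL5 against 66.5 and 76.9 CPM in shNC (log2 fold change -0.89, adjusted p = 0.000163), and ELK3 was lower too (-0.70, adjusted p = 0.0194). FHL3, which is also counted among the paralogs, and CSRP1, a LIM cofactor gene of smooth muscle, made up the rest; CSRP1 had adjusted p = 0.000345 and a log2 fold change of -0.67. ELK3 did not pass with no low-count filter (adjusted p = 0.0671), nor without shELOVL5 replicate 1 or 2 or shNC replicate 1. Its log2 fold change was -0.90 to -0.48 over the alternatives. The coactivator gene MYOCD had 0 counts. Of 12 immediate early targets, all tested, 2 were higher and none was lower (median 0.16): DUSP5, a phosphatase gene (0.77, adjusted p = 0.0127), and MCL1, a survival gene (0.22, adjusted p = 0.0130). EGR3 (-0.95) and JUNB (0.23) did not pass. Neither the DUSP5 nor the MCL1 call held without shELOVL5 replicate 1 or 2. MCL1 also did not pass without shNC replicate 2 or with no low-count filter (adjusted p = 0.0625). Over the alternatives the adjusted p was 0.0104 to 0.0941 for DUSP5 and 0.00278 to 0.0966 for MCL1.

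Genes of the YAP and TEAD pathway that passed went in both directions. The tested genes that it is named after did not pass: YAP1 (log2 fold change -0.26), TEAD1 (0.26), TEAD3 (0.35) and TEAD4 (-0.23). In this pathway, which shares CCN1 and CCN2 with SRF, 13 of 17 genes were tested, 4 were higher and 2 were lower (median 0.22). Over all tested genes, 9.22% were higher and 11.2% lower. The upstream genes NF2 (0.45, adjusted p = 0.000531), STK4 (0.27, adjusted p = 0.00285) and LATS1 (0.22, adjusted p = 0.0241) were higher, and the cofactor gene VGLL4 was lower (-0.46, adjusted p = 0.000233). LATS1 did not pass by DESeq2 (adjusted p = 0.0562) or with no low-count filter (0.0640). It also failed without either shELOVL5 library or without shNC replicate 2. Its log2 fold change was 0.18 to 0.25 over the alternatives. Without shELOVL5 replicate 1 or 2 or shNC replicate 2, 2 genes of that list were higher, and 1 was lower without any 1 library.

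**Figure D5:**
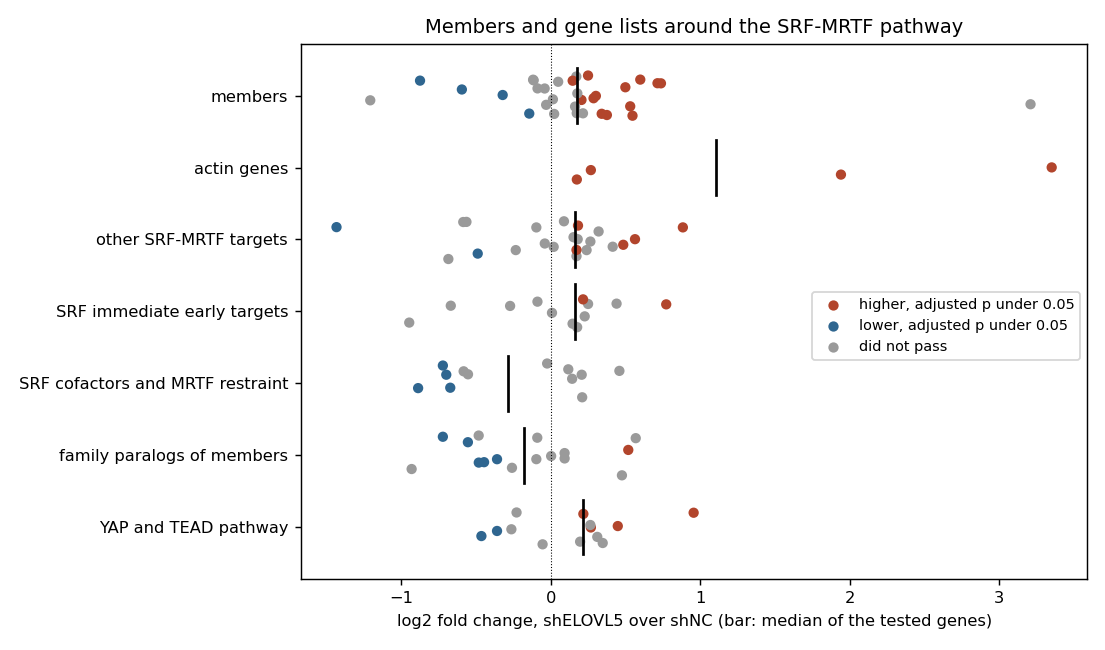
Log2 fold changes of shELOVL5 over shNC for the tested members and for the tested genes of 6 lists around the pathway; each point is a gene, red higher and blue lower at an adjusted p under 0.05, and black bars are medians. The actin list is shifted farthest right (median 1.10), and the median of the cofactor list lies left of 0 (-0.29), with 5 of its 12 genes right of 0.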

How the data were processed

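The authors deposited 1 table of raw read counts per Ensembl gene, not normalized, with a column for each of the 4 libraries. Per the submitters' processing notes, HISAT2 2.2.0, StringTie and hg38 were used; the sources used here name no annotation release, counting step or use of strand. RNA was isolated with TRIzol and prepared with a TruSeq kit, per the labels' protocols. Symbols came from a name table (56105 identifiers matched). Coordinates and merged exon lengths came from GENCODE on GRCh38, and promoter windows from RefSeq (GRCh38.p14).

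Libraries were grouped by title. Genes were filtered with filterByExpr (minimum count 10), scaled by TMM and tested with edgeR 4.0.16 in R 4.3.3 (glmQLFit with robust=TRUE, glmQLFTest, two-sided, group only), with Benjamini-Hochberg adjustment over all tested genes and a threshold of 0.05. SE is the fold change divided by the square root of F. Alternatives were RLE factors, total counts, other filters, DESeq2 1.42.0, limma-voom (limma 3.58.1), robust=FALSE, a replicate block and leaving out each library. The script was tested on simulated data. Members and lists were chosen with earlier results of these data known. Values are given per library for members that passed and for SRF and its coactivators; of each pathway list the 4 tested genes with the smallest p and every actin are named, of each marker list the 4 most abundant. Some genes and 1 list are not reported here.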

Additional observations from a re-analysis of the deposited data

How the results depend on the processing

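The member counts of 13 higher and 4 lower stayed within 1.5 times under all 12 alternatives: 9 to 13 and 3 to 4 without 1 library, and 10 to 13 and 3 to 4 under the other 8. All genes gave 1610 higher and 1952 lower, 696 to 1347 and 1176 to 1616 without 1 library, and 899 higher with no low-count filter. Signs turned for 3 members that had not passed: SRF (0.0044 by total counts, and -0.086 to 0.013 without 1 library), FHL1 (-0.096 to 0.12 without 1 library) and DIAPH1 (-0.027 to 0.046 without 1 library). Without 1 library the cofactor list had 0 to 1 higher and 2 to 3 lower genes, the immediate early list 0 to 2 and 0 to 1, the other SRF-MRTF targets 3 to 5 and 1 to 2, the paralogs 1 and 1 to 3, and the YAP list 2 to 3 and 1. With no low-count filter, 1 immediate early gene and 2 YAP genes were higher, and 3 paralogs and 1 YAP gene were lower. With robust=FALSE 3 paralogs and 1 YAP gene were lower. DESeq2 gave 2 higher and 1 lower YAP genes, and total counts and limma-voom each gave 1 lower. With a replicate block 1551 genes were higher and 1902 lower, 1 immediate early gene was lower, and no other count moved by over 1.5 times. Replicate numbers were treated as names only, since deviations from the group means of same-numbered libraries did not go together (r = -0.0148 over genes, without a test). A mismatch allowed in the CArG box raised the members with a match from 8 to 13. The cause of these shifts was not tested. With 2 libraries per group, the low counts of CNN1, CNN3, CCN1 and CALD1 (0 to 29 per library) limit what can be said of them.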
